A study of Rattus norvegicus and Mus musculus with 25 samples.

Results

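The DNA replication and S phase genes are 46 genes that build, fire and follow the replication fork. They were picked by gene symbol, but with earlier results of these data known, so the list as a set has no test. All 46 were found in each of the 3 expression tables of the series. The rat tables hold 28905 gene rows each, and that of mouse holds 54083. All 46 passed the filter on low values, among 13860 genes tested in the 12-library rat table, 13416 in the 4-library rat table and 14922 in mouse. By role they fall into 9 groups. Origin licensing and its control takes 6 genes (Orc1, Orc6, Cdc6, Cdt1, Gmnn, Dtl), the helicase ring 6 (Mcm2 to Mcm7) and helicase activation 6 (Mcm10, Cdc45, Gins1 to Gins4). Polymerases and primase take 9 (Pola1, Pola2, Prim1, Prim2, Pole, Pole2, Pold1 to Pold3), and the sliding clamp with its loader 6 (Pcna, Rfc1 to Rfc5). Single-strand binding and Okazaki fragment maturation take 4 (Rpa1, Rpa2, Fen1, Lig1), deoxynucleotide supply 4 (Rrm1, Rrm2, Tyms, Tk1), chromatin assembly and maintenance methylation 4 (Chaf1a, Chaf1b, Uhrf1, Dnmt1) and homologous recombination 1 (Brca1).

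Replication starts where the origin recognition complex sits and where Cdc6 and Cdt1 load the MCM ring, which becomes an active helicase once Cdc45 and the GINS complex join it. Polymerases held by the Pcna clamp then copy the strands, and a set of enzymes supplies deoxynucleotides, seals the lagging strand and restores chromatin and DNA methylation behind the fork. Most of these genes are transcribed together before and during S phase under E2F transcription factors. Heart muscle cells of newborn rodents still copy their DNA, partly without dividing, and largely leave the cell cycle soon after birth, so these transcripts mark DNA synthesis and not cell division as such.

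The series holds 25 RNA-seq libraries on Vldlr, a receptor of the low density lipoprotein receptor family, and the secreted proteins Reelin and thrombospondin-1 (gene Thbs1), and its title names them together with cardiomyocyte proliferation. In rat, 16 libraries came from ventricular cardiomyocytes of SD rats aged 1 day, cultured after pre-plating that takes away faster-attaching cells. They form 8 groups of 2: si-Vldlr and si-Control_v, and si-Thbs1 and si-Control_t, each with 50 nM siRNA for 60 h; Reelin protein and PBS for 48 h; and Vldlr OE and Control for 72 h. For the last pair the treatment text names the adeno-associated viruses AAV9-cTnT-Vldlr, with a cardiomyocyte promoter, and AAV9-CMV-GFP, with a general promoter, so that virus and promoter differ between them as well as the cargo. The mouse libraries are 9 from cardiomyocytes of C57BL/6 mice at day 1, with 3 libraries for each of 3 genotypes. Vldlr f/f carries floxed Vldlr and no Cre, Myh6-Cre;Vldlr f/+ has Cre under a cardiomyocyte promoter and a single floxed copy, and Myh6-Cre;Vldlr f/f has this Cre and floxed Vldlr on both copies. Both Cre genotypes carry the Cre and Vldlr f/f does not, so Cre and loss of Vldlr cannot be told apart against Vldlr f/f. The labels do not say whether the libraries of a group are separate cultures or animals. The tests therefore rest on a spread between libraries that may be technical only.

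Values are in CPM, scaled so that each library sums to 1000000, and the number of reads behind them is not known. The labelled manipulations showed in their targets as follows. Thbs1 was 943 and 892 CPM in si-Control_t and 745 and 546 CPM in si-Thbs1, and Vldlr was 252 and 257 CPM in si-Control_v and 183 and 171 CPM in si-Vldlr. Vldlr was 577 and 379 CPM in the Control columns and 656 and 889 CPM in Vldlr OE. In mouse, Vldlr was 195, 109 and 164 CPM in Vldlr f/f, 98.4, 112 and 100.2 CPM in Myh6-Cre;Vldlr f/+ and 71.3, 78.9 and 85.1 CPM in Myh6-Cre;Vldlr f/f. Cardiomyocyte genes were high throughout (Tnnt2 at 2289 CPM or more in each library), but the rat libraries also held fibroblast genes, with Col1a1 at 14980 CPM or more. Mouse libraries held red blood cell genes, with Hba-a1 from 879 to 2484 CPM. They also held fibroblast and endothelial genes, with Col3a1 from 923 to 2070 CPM and Cdh5 from 182 to 373 CPM. In such mixed samples, fewer cells of a type and less RNA per cell cannot be told apart. The 2 Control columns are headed Blank, a name that no sample title uses, and were matched to Control by elimination. Whether these cells received the AAV9-CMV-GFP virus cannot be told from that name. Since they cannot be matched to single labels, they are called Control column 1 and Control column 2 here.

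E2F sites are the sequence feature these genes are best known to share, so promoters were searched before the values are given. Rat promoters from RefSeq (build GRCr8, 250 bases before to 50 bases after the start of the gene) were found for 41 of the 46 genes, as 43 promoters, and not for Mcm4, Cdc6, Gins4, Rrm2 and Orc1. The E2F consensus was searched as TTTCCCGC, TTTCGCGC, TTTGCCGC and TTTGGCGC, on both strands, and a palindromic match counts on each strand. It was present in 20 of the 43 promoters (46.5%), against 2.14% of all 33469 promoters of the table and 3.80% of the 10939 promoters of the other genes tested in the 12-library table. Median GC content was 60.0% in the promoters of the set and 60.7% in those of the other tested genes. The letters CCAAT, the box bound by NF-Y, were in 67.4% of the set's promoters, against 37.5% of all and 36.8% of the other tested genes. A match describes letters and not binding, and for 10 of the 20 genes a match lies wholly upstream of the start.

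Windows of 46 bases are shown for 7 of these 10 genes, from licensing control (Dtl) through the helicase (Mcm2, Mcm5, Mcm6, Gins1) to nucleotide supply (Tyms) and methylation (Uhrf1), because they let the shared letters be seen side by side. They lie on GRCr8 at chr13:105685939-105685984 (Dtl, minus strand), chr13:42404465-42404510 (Mcm6, minus), chr19:13488581-13488626 (Mcm5, plus), chr3:160184874-160184919 (Gins1, plus), chr9:1223068-1223113 (Uhrf1, plus), chr4:122918095-122918140 (Mcm2, minus) and chr9:120776094-120776139 (Tyms, minus). The match begins 44, 139, 213, 25, 99, 14 and 37 bases before the start of the gene, in that order. Each is written 5′ to 3′ along the gene's strand, and capitals mark the bases that match the E2F consensus on either strand.
Dtl: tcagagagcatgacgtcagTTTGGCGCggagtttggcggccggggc
Mcm6: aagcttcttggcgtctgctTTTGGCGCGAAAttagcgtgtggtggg
Mcm5: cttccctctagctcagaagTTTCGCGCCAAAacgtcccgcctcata
Gins1: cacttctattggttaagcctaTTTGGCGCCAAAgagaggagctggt
Uhrf1: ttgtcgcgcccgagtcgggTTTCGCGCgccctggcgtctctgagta
Mcm2: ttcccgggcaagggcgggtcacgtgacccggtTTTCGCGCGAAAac
Tyms: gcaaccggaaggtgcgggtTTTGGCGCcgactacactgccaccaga
In Mcm6, Mcm5, Gins1 and Mcm2 matches on both strands overlap, so the capitals run over more than 8 bases.

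Set against each gene's mean over its table, the genes moved together from library to library. In the 12-library table all 46 lay above their own median in si-Control_v replicate 1 and 43 did in si-Control_v replicate 2, while 1 did in Control column 1, 1 in Vldlr OE replicate 1 and 0 in Vldlr OE replicate 2. Vldlr OE replicate 2 held the lowest value of the 12 for 40 genes, and si-Control_v replicate 1 the highest for 29. The sum over the 46 genes ran from 730 CPM in Vldlr OE replicate 2 to 1503 CPM in si-Control_v replicate 1. Control groups of different experiments also differed. The sums were 848 and 1218 CPM in Control, 1193 and 1269 CPM in PBS and 1503 and 1405 CPM in si-Control_v. Each treatment is therefore compared with its own control only. In the 4-library table the sums were 1043 and 927 CPM in si-Control_t and 1507 and 1391 CPM in si-Thbs1. In mouse they were 660.0, 626 and 863 CPM in Vldlr f/f, 648, 946 and 574 CPM in Myh6-Cre;Vldlr f/+ and 916, 752 and 643 CPM in Myh6-Cre;Vldlr f/f, and the ranges of the 3 genotypes overlap.

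**Figure D1:**
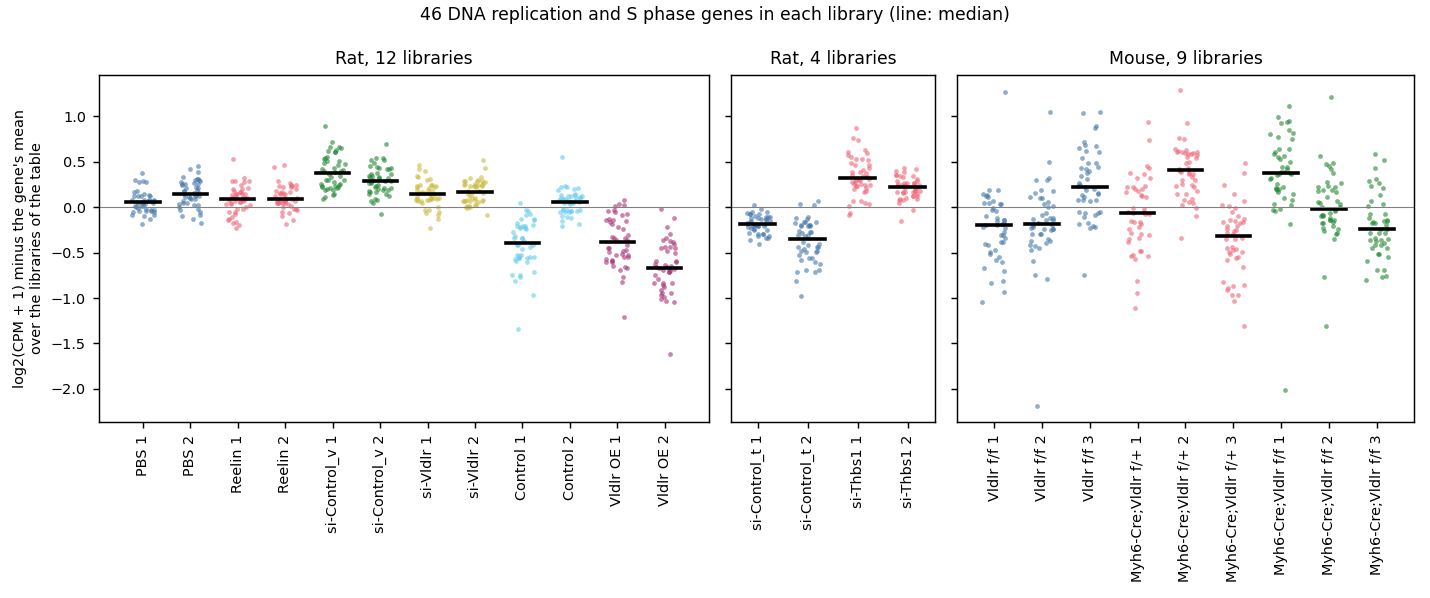
Level of each of the 46 genes in each library, as log2(CPM + 1) minus the gene's mean over the libraries of its table. Each point is a gene and each bar the median of the 46 genes. The si-Thbs1 libraries (medians 0.32 and 0.22) stand above both si-Control_t libraries (-0.19 and -0.35), the Control columns differ from each other (-0.39 and 0.06), and each mouse genotype spans a range that overlaps the others.

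Among the 7 comparisons of rat and mouse, silencing of Thbs1 went with the widest shift of the set. All 46 genes had a higher mean in si-Thbs1 than in si-Control_t, where 58.4% of the 13416 genes tested did. Both si-Thbs1 libraries lay above both controls for 43 of the 46, against 18.5% of genes tested. The exceptions were Orc1, Gins2 and Rfc1. The median log2 fold change of the set was 0.54 (range 0.04 for Rfc1 to 1.12 for Rrm2), beside 0.03 over all genes. No gene of the set passed limma's test after adjustment over all 13416 genes (smallest adjusted p = 0.471), a test that 0.0447% of genes passed, while 34 of the 46 had an unadjusted p under 0.05 and a higher level, against 3.03% of genes. Fold changes here and below are on the log2(CPM + 1) scale, with the standard error from the fit, and understate the change of low genes. By role, the median log2 fold change was 0.76 for chromatin assembly and methylation, 0.69 for licensing, 0.66 for the helicase ring, 0.66 for helicase activation and 0.59 for deoxynucleotide supply. It was 0.50 for single-strand binding and Okazaki maturation, 0.45 for the clamp and its loader and 0.41 for polymerases and primase.

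In licensing, Cdt1, which loads the MCM ring, was at 8.38 and 4.85 CPM in si-Control_t and 16.1 and 10.9 CPM in si-Thbs1 (replicates 1 and 2 in that order, as in all such sentences). Cdc6, the ATPase that works with Cdt1, was at 5.08 and 4.04 CPM in si-Control_t and 9.45 and 6.65 CPM in si-Thbs1. Dtl, the ubiquitin ligase subunit that directs Cdt1 to destruction in S phase, was at 8.397 and 5.33 CPM in si-Control_t and 13.6 and 11.5 CPM in si-Thbs1. All 3 were higher in both si-Thbs1 libraries, by 0.95 ± 0.30, 0.69 ± 0.23 and 0.81 ± 0.24 (SE) on the log2 scale, with limma adjusted p = 0.716, 0.751 and 0.653. Gmnn, which holds Cdt1 back, was at 8.57 and 4.74 CPM in si-Control_t and 13.6 and 8.698 CPM in si-Thbs1, and its highest control lay just under its lowest si-Thbs1 library.

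In the helicase ring, Mcm3 was at 33.4 and 26.1 CPM in si-Control_t and 52.6 and 44.98 CPM in si-Thbs1. Mcm4 was at 40.05 and 32.6 CPM in si-Control_t and 59.5 and 53.4 CPM in si-Thbs1. Mcm6 was at 32.98 and 25.7 CPM in si-Control_t and 55.95 and 45.5 CPM in si-Thbs1. These ring subunits were higher by 0.70 ± 0.18, 0.63 ± 0.16 and 0.77 ± 0.19 (SE), and all 6 ring genes were without overlap and had an unadjusted p under 0.05. Mcm10, which helps turn the loaded ring into a moving helicase, was at 7.44 and 6.13 CPM in si-Control_t and 14.4 and 12.2 CPM in si-Thbs1. Cdc45, which joins the ring at firing, was at 8.13 and 7.19 CPM in si-Control_t and 15.8 and 11.1 CPM in si-Thbs1. Gins1, a subunit of the GINS complex that joins it too, was at 3.85 and 3.26 CPM in si-Control_t and 6.89 and 6.62 CPM in si-Thbs1. The log2 differences of these activators were 0.88 ± 0.19, 0.72 ± 0.22 and 0.77 ± 0.18, with limma adjusted p = 0.471, 0.658 and 0.471. Gins2, of the same GINS complex, differed from this picture with 14.7 and 20.8 CPM in si-Control_t and 18.9 and 26.3 CPM in si-Thbs1, where the second control lay above the first si-Thbs1 library.

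Of the polymerases, Pole, the catalytic subunit of the leading-strand polymerase, was at 10.6 and 9.61 CPM in si-Control_t and 19.1 and 16.3 CPM in si-Thbs1. Its partner subunit Pole2 was at 2.398 and 1.47 CPM in si-Control_t and 5.77 and 3.48 CPM in si-Thbs1. Prim1, the catalytic subunit of primase, was at 15.4 and 14.2 CPM in si-Control_t and 22.6 and 20.3 CPM in si-Thbs1. The 2 epsilon subunits stood out among the 9 genes, at 0.75 ± 0.17 and 0.93 ± 0.29 (SE), where Prim1 was at 0.51 ± 0.15 and Pola1, Pola2 and Pold3 were at 0.29, 0.17 and 0.15, although all 9 were without overlap. Pcna, the sliding clamp, was at 60.9 and 60.3 CPM in si-Control_t and 92.8 and 81.7 CPM in si-Thbs1. The clamp loader subunit Rfc3 was at 12.99 and 12.7 CPM in si-Control_t and 18.9 and 18.96 CPM in si-Thbs1. Rfc5, another loader subunit, was at 12.5 and 8.15 CPM in si-Control_t and 15.8 and 16.01 CPM in si-Thbs1. These were higher by 0.51 ± 0.13, 0.52 ± 0.15 and 0.60 ± 0.23, while Rfc1, the large loader subunit, was at 46.3 and 50.1 CPM in si-Control_t and 45.8 and 53.4 CPM in si-Thbs1 and overlapped.

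Behind the fork, Fen1, which trims the flaps of Okazaki fragments, was at 18.2 and 13.6 CPM in si-Control_t and 24.9 and 23.8 CPM in si-Thbs1. Lig1, the ligase that joins them, was at 23.5 and 24.5 CPM in si-Control_t and 39.1 and 35.5 CPM in si-Thbs1. Rpa2, a subunit of the protein that coats single strands, was at 16.6 and 16.7 CPM in si-Control_t and 22.8 and 21.7 CPM in si-Thbs1. Their differences were 0.60 ± 0.19, 0.61 ± 0.14 and 0.40 ± 0.14 (SE), without overlap. Rrm2, the regulated subunit of ribonucleotide reductase, was at 50.6 and 28.1 CPM in si-Control_t and 104 and 66.96 CPM in si-Thbs1. Tk1, the thymidine kinase of the salvage route, was at 38.6 and 32.7 CPM in si-Control_t and 54.96 and 56.8 CPM in si-Thbs1. Tyms, which makes thymidylate, was at 24.4 and 22.5 CPM in si-Control_t and 31.7 and 36.1 CPM in si-Thbs1. Rrm2 differed most of the 46 genes, by 1.12 ± 0.33 with a 95% interval of 0.28 to 1.96 and limma adjusted p = 0.652, against 0.64 ± 0.15 for Tk1 and 0.51 ± 0.15 for Tyms.

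Chaf1a, the large subunit of the factor that sets new histones on copied DNA, was at 13.4 and 12.9 CPM in si-Control_t and 22.6 and 23.9 CPM in si-Thbs1. Its partner Chaf1b was at 5.47 and 3.63 CPM in si-Control_t and 9.17 and 7.14 CPM in si-Thbs1. Uhrf1, which reads half-methylated DNA and brings in the methyltransferase Dnmt1, was at 20.8 and 15.7 CPM in si-Control_t and 33.7 and 33.7 CPM in si-Thbs1. These were higher by 0.78 ± 0.15, 0.73 ± 0.24 and 0.86 ± 0.18 (SE), and Chaf1a had the smallest unadjusted p of the set (limma adjusted p = 0.471). Brca1, which acts in homologous recombination and protects stalled forks, was at 8.499 and 7.097 CPM in si-Control_t and 11.8 and 11.6 CPM in si-Thbs1, a difference of 0.54 ± 0.17.

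The direction in si-Thbs1 held without each library: leaving out each of the 4 in turn gave a median of 0.49 to 0.62 with 45 or 46 genes above 0. With the replicate number as a block Rrm2 passed limma's test (limma adjusted p = 0.0320). Of all 13416 genes 43 then passed, against 6 without the block. The labels do not state that replicate numbers mark a shared culture, and a block in 4 libraries leaves little to estimate the spread from. Markers of other cell types moved alongside. All 8 fibroblast genes had a lower mean in si-Thbs1, as did 5575 of the 13416 genes tested. The fibroblast genes summed to 33017 and 38391 CPM in si-Control_t and 28089 and 34572 CPM in si-Thbs1, which overlap. Macrophage genes summed to 196 and 213 CPM in si-Control_t and 132 and 168 CPM in si-Thbs1. Of the 5 that passed the filter 4 were lower without overlap, against 1447 of the 13416 genes tested. Cd163 was at 0 in all 4 libraries. Epicardial genes summed to 131 and 125 CPM in si-Control_t and 103 and 106 CPM in si-Thbs1. Cardiomyocyte genes summed to 21547 and 18824 CPM in si-Control_t and 24528 and 18298 CPM in si-Thbs1, which overlap. Of the smooth muscle and pericyte genes 4 of 6 were higher (median 0.34 on the log2 scale), where 58.4% of genes tested were. An unadjusted p under 0.05 came with 2 of them, against 3.03% of genes. Smooth muscle and pericyte genes summed to 1313 and 950.1 CPM in si-Control_t and 2048 and 947 CPM in si-Thbs1, which overlap. Their part in the result was not tested.

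**Figure D2:**
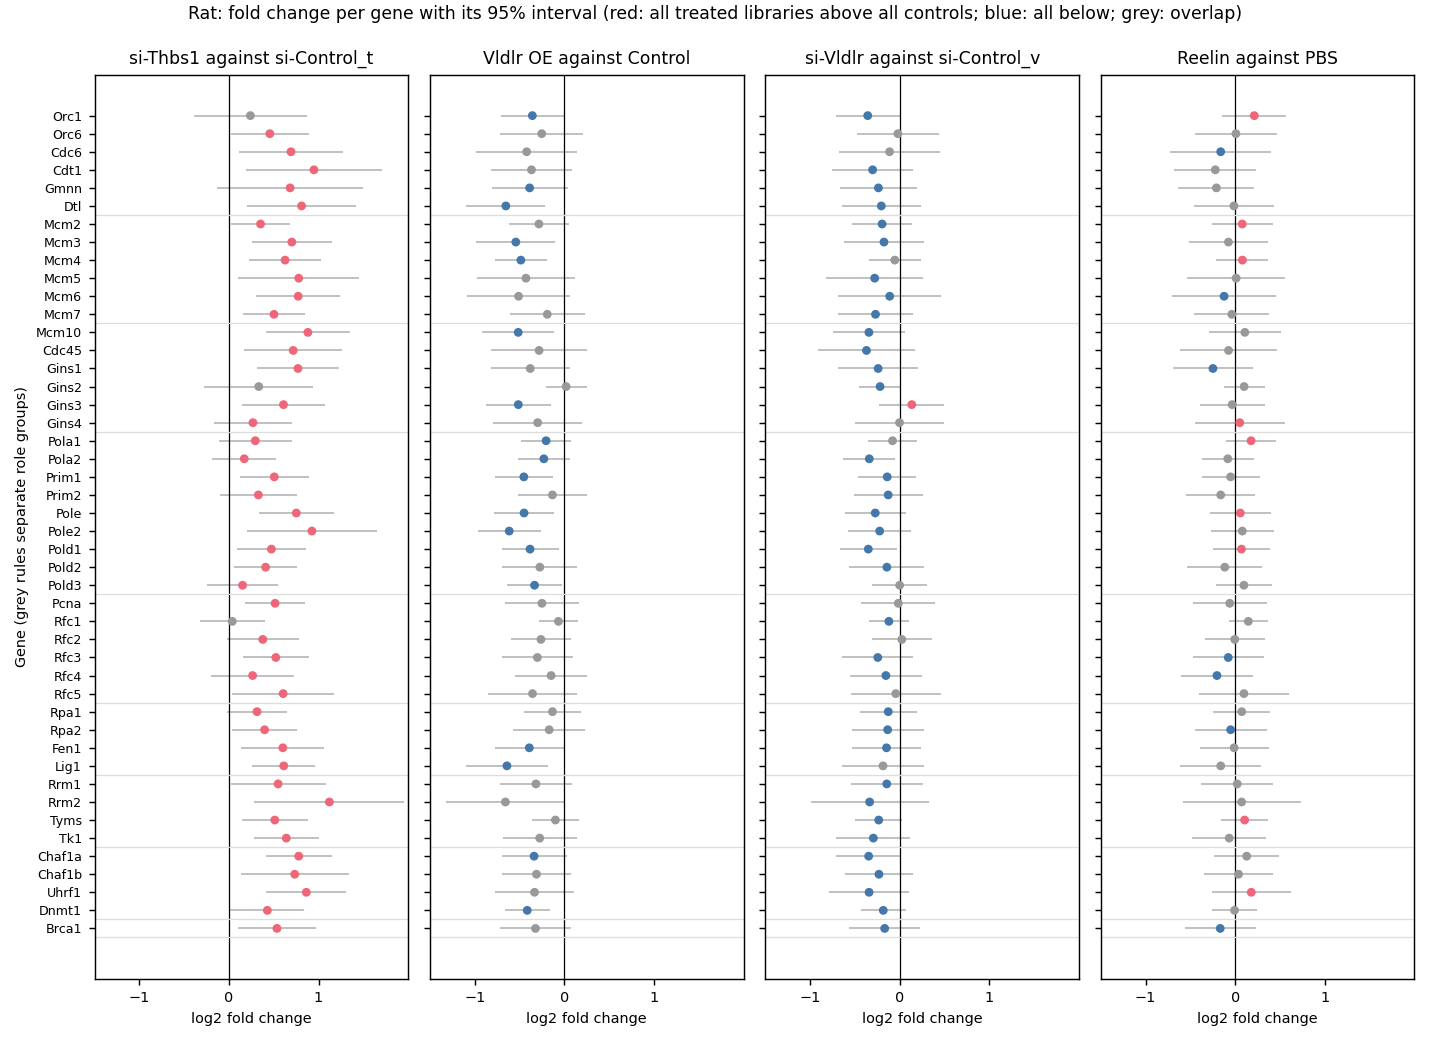
Log2 fold change of the 46 genes (rows, in role order) in the 4 rat comparisons, with the 95% interval of the limma fit as a bar. Red points have every treated library above every control, blue points every treated library below, and grey points overlap. The si-Thbs1 column lies to the right of 0 for 46 genes, the Vldlr OE column to the left for 45, the si-Vldlr column to the left for 44, and the Reelin column has 22 genes to the right and 24 to the left.

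Under Vldlr overexpression the set leaned the other way, by an amount that differed with the Control column it was set against. Of the 46 genes 45 had a lower mean in Vldlr OE than in Control, where 57.2% of the 13860 genes tested did, and Gins2 was at 0.02. For 18 genes both Vldlr OE libraries lay below both Control columns, against 15.5% of genes. The median log2 fold change was -0.33 (range -0.66 for Rrm2 to 0.02 for Gins2), beside -0.03 over all genes. No gene of the set passed limma's test (smallest adjusted p = 0.958), which 0.00722% of genes passed, and 15 had an unadjusted p under 0.05 and a lower level, against 3.15% of genes. Upward, 0 of the 46 were without overlap and 0 had an unadjusted p under 0.05, against 9.54% and 1.36% of genes. All 46 genes were higher in Control column 2 than in Control column 1, and Vldlr OE replicate 1 was above Control column 1 for 27 of the 46. Without Control column 2 the median was -0.09, with 14 genes above 0. Without Control column 1 it was -0.59, with 1 gene above 0.

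Among licensing genes Dtl was at 5.700 and 9.41 CPM in Control and 4.57 and 4.06 CPM in Vldlr OE. Orc1, the large subunit of the origin recognition complex, was at 2.46 and 2.65 CPM in Control and 2.22 and 1.39 CPM in Vldlr OE. Gmnn was at 5.64 and 7.62 CPM in Control and 5.55 and 4.100 CPM in Vldlr OE. All 3 were below both controls, with log2 fold changes of -0.65 ± 0.20, -0.36 ± 0.16 and -0.39 ± 0.19 (SE). Mcm3 was at 26.3 and 40.05 CPM in Control and 25.98 and 18.6 CPM in Vldlr OE. Mcm4 was at 38.8 and 52.4 CPM in Control and 34.3 and 29.7 CPM in Vldlr OE. Mcm6 was at 27.01 and 48.9 CPM in Control and 32.5 and 19.5 CPM in Vldlr OE. Mcm3 and Mcm4 lay below both controls, at -0.54 ± 0.20 and -0.49 ± 0.13, and Mcm6, at -0.51 ± 0.26, did not, since Vldlr OE replicate 1 lay above Control column 1.

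Mcm10 was at 6.63 and 10.6 CPM in Control and 5.95 and 5.201 CPM in Vldlr OE. Gins3, another GINS subunit, was at 2.62 and 3.804 CPM in Control and 1.84 and 1.999 CPM in Vldlr OE. Gins1 was at 4.06 and 5.69 CPM in Control and 4.34 and 2.73 CPM in Vldlr OE. Mcm10 and Gins3 were without overlap at -0.52 ± 0.18 and -0.51 ± 0.16 (SE), while Gins1, at -0.38 ± 0.20, overlapped. Pole2 was at 3.49 and 3.497 CPM in Control and 2.09 and 1.78 CPM in Vldlr OE. Pole was at 10.8 and 15.8 CPM in Control and 9.63 and 8.998 CPM in Vldlr OE. Prim1 was at 19.6 and 23.5 CPM in Control and 16.9 and 14.03 CPM in Vldlr OE. Pole2 had the smallest unadjusted p of the set, at -0.62 ± 0.16 with limma adjusted p = 0.958, and Pole and Prim1 were at -0.45 ± 0.15 and -0.45 ± 0.15. The polymerase and primase group had 7 of its 9 genes without overlap, against 0 of the 6 in the clamp group, where Rfc5, at 8.78 and 13.2 CPM in Control and 10.6 and 6.29 CPM in Vldlr OE, gave -0.36 ± 0.22.

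Lig1 was at 24.6 and 37.6 CPM in Control and 17.96 and 20.4 CPM in Vldlr OE. Fen1 was at 13.1 and 20.6 CPM in Control and 12.9 and 11.7 CPM in Vldlr OE. Rrm2 was at 15.9 and 37.7 CPM in Control and 17.7 and 13.1 CPM in Vldlr OE. Lig1 and Fen1 were below both controls, at -0.64 ± 0.20 and -0.39 ± 0.17 (SE), and Rrm2, at -0.66 ± 0.30, overlapped because Control column 1 lay below Vldlr OE replicate 1. Dnmt1, the maintenance methyltransferase, was at 58.01 and 76.8 CPM in Control and 49.01 and 50.7 CPM in Vldlr OE. Chaf1a was at 10.8 and 15.6 CPM in Control and 10.2 and 9.91 CPM in Vldlr OE. Both were without overlap, at -0.42 ± 0.11 and -0.34 ± 0.16, and Brca1, at 5.43 and 8.35 CPM in Control and 5.86 and 4.61 CPM in Vldlr OE, overlapped. Summed cardiomyocyte markers were 15601 and 15480 CPM in Control and 12473 and 15683 CPM in Vldlr OE, with 7 of 7 at a negative fold change (median -0.13), and the sums overlap. Fibroblast markers summed to 35558 and 39955 CPM in Control and 33715 and 38295 CPM in Vldlr OE, which overlap. Their part in the result was not tested.

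Silencing of Vldlr went with a small, even shift downward. Of the 46 genes 44 had a lower mean in si-Vldlr than in si-Control_v, where 53.9% of genes tested did, Gins3 and Rfc2 being the exceptions. For 35 genes neither si-Vldlr library reached the lower control, against 27.4% of genes, and for Gins3 both lay above the higher control, against 21.1%. The median log2 fold change was -0.19 (range -0.37 for Cdc45 to 0.13 for Gins3), beside -0.02 over all genes. No gene of the set passed limma's test (smallest adjusted p = 0.371), which 0.0289% of genes passed, and 3 (Orc1, Pola2 and Pold1) had an unadjusted p under 0.05 and a lower level, against 6.39% of genes, which is a share near the background. None of the 46 did so with a higher level, against 5.38%. The intervals put all 46 genes within 2-fold of no change. Leaving out each library in turn gave medians of -0.21 to -0.12.

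Orc1 was at 3.52 and 3.67 CPM in si-Control_v and 2.58 and 2.59 CPM in si-Vldlr. Cdt1 was at 16.5 and 15.6 CPM in si-Control_v and 11.9 and 13.7 CPM in si-Vldlr. Mcm7, of the helicase ring, was at 48.5 and 49.8 CPM in si-Control_v and 40.9 and 40.2 CPM in si-Vldlr. In each the libraries of a group lay close together, and the log2 fold changes were -0.36 ± 0.16, -0.30 ± 0.20 and -0.27 ± 0.19 (SE). Cdc45 was at 15.8 and 13.9 CPM in si-Control_v and 11.1 and 11.3 CPM in si-Vldlr. Mcm10 was at 16.8 and 15.1 CPM in si-Control_v and 11.7 and 12.99 CPM in si-Vldlr. Pola2, the second subunit of polymerase alpha, was at 23.7 and 29.1 CPM in si-Control_v and 20.1 and 20.98 CPM in si-Vldlr. Their log2 fold changes were -0.37 ± 0.24, -0.35 ± 0.18 and -0.34 ± 0.13, with limma adjusted p = 0.572, 0.486 and 0.371.

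Pold1, the catalytic subunit of the lagging-strand polymerase, was at 26.5 and 23.6 CPM in si-Control_v and 19.1 and 19.8 CPM in si-Vldlr. Rrm2 was at 78.95 and 68.5 CPM in si-Control_v and 55.6 and 60.6 CPM in si-Vldlr. Tk1 was at 51.7 and 50.3 CPM in si-Control_v and 41.8 and 40.9 CPM in si-Vldlr. All 3 lay below both controls, with log2 fold changes of -0.35 ± 0.14, -0.34 ± 0.30 and -0.30 ± 0.19 (SE). Chaf1a was at 22.5 and 22.1 CPM in si-Control_v and 17.8 and 16.8 CPM in si-Vldlr. Uhrf1 was at 38.00 and 35.04 CPM in si-Control_v and 27.7 and 29.4 CPM in si-Vldlr. Both were without overlap as well, at -0.35 ± 0.16 and -0.34 ± 0.20, as were all 8 genes of nucleotide supply and of chromatin assembly and methylation. Pcna overlapped, with 87.5 and 79.8 CPM in si-Control_v and 81.04 and 84.2 CPM in si-Vldlr. Cardiomyocyte markers were lower in the same libraries, 7 of 7 with a negative fold change (median -0.25) and sums of 17000 and 20835 CPM in si-Control_v and 14976 and 15609 CPM in si-Vldlr. Smooth muscle markers summed to 2314 and 2128 CPM in si-Control_v and 2571 and 2703 CPM in si-Vldlr. Neither sum overlaps between the groups, the first lower and the second higher in si-Vldlr. Their part in the result was not tested.

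Reelin protein went with no shift of the set in either direction that these libraries resolve. Of the 46 genes 22 had a higher and 24 a lower mean, where 58.5% of genes tested had a higher one, the median log2 fold change was -0.01 beside 0.02 over all genes, and the sums were 1193 and 1269 CPM in PBS and 1236 and 1231 CPM in Reelin. The groups did not overlap for 9 genes upward and 7 downward, against 19.7% and 13% of genes tested. No gene of the set passed limma's test, which 0.0144% of genes passed, and 0 had an unadjusted p under 0.05, against 0.844% of genes upward and 0.519% downward. The 95% intervals of all 46 genes stayed within 2-fold of no change, and those of 35 within 1.5-fold. Orc1 was at 2.91 and 3.05 CPM in PBS and 3.65 and 3.58 CPM in Reelin. Gins1 was at 6.47 and 7.196 CPM in PBS and 4.98 and 6.25 CPM in Reelin. These were the most positive and the most negative of the set, at 0.21 ± 0.16 and -0.25 ± 0.20 (SE). Mcm4 was at 52.2 and 52.00 CPM in PBS and 54.96 and 55.3 CPM in Reelin, a difference of 0.08 ± 0.13, which shows how close the 4 libraries lay.

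Across the 46 genes, a larger difference in si-Thbs1 went with a more negative one in Vldlr OE (Pearson r = -0.68, Spearman rho = -0.68, n = 46 genes). These comparisons share no library, but the 46 points come from the same 8 libraries and are not independent, and the log2(CPM + 1) scale compresses low genes in both. Rrm2, Pole2 and Dtl were far from 0 in both, and Rfc1 was near 0 in both. For si-Thbs1 against si-Vldlr r was -0.39, for si-Thbs1 against Reelin -0.15, for si-Thbs1 against Myh6-Cre;Vldlr f/f less Vldlr f/f 0.29, and for Vldlr OE against si-Vldlr 0.09. The genes with an E2F match in the promoter had a median log2 fold change of 0.65 in si-Thbs1 (20 genes) against 0.51 without a match (21 genes), -0.39 against -0.28 in Vldlr OE and -0.22 against -0.15 in si-Vldlr. In Reelin the medians were -0.02 with and -0.01 without a match. No mouse promoter was searched, so the mouse genes were split by the match in the rat promoter of the same symbol. Their medians were 0.12 against 0.20 for Myh6-Cre;Vldlr f/f and -0.03 against 0.07 for Myh6-Cre;Vldlr f/+, both relative to Vldlr f/f. Between the Cre genotypes they were 0.10 against 0.06. The genes with a match were thus not farther from 0 in each comparison. None of these differences was tested. Among the genes whose sequences are printed above, Dtl and Mcm6 were at 0.81 and 0.77 in si-Thbs1 and at -0.65 and -0.51 in Vldlr OE, Tyms at 0.51 and -0.10, and Mcm2 at 0.35 and -0.28.

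**Figure D3:**
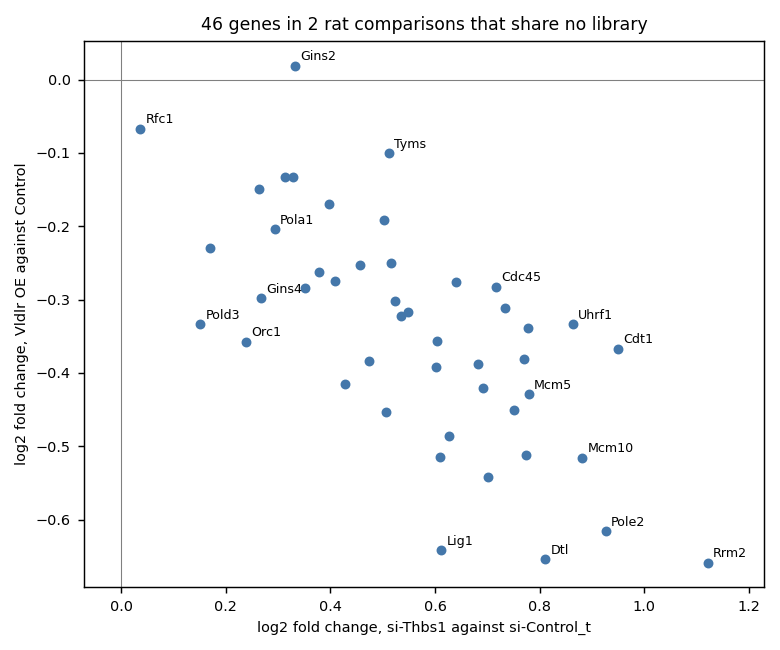
Log2 fold change in si-Thbs1 against si-Control_t (horizontal) and in Vldlr OE against Control (vertical) for the 46 genes, 1 point per gene, with the outlying genes named. Points run from Rfc1 at the upper left (0.04 and -0.07) to Rrm2 at the lower right (1.12 and -0.66), and no gene lies left of 0.

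Of the other genes of the pathway, 0 passed limma's test in each list and rat comparison. In si-Thbs1, 23 of 27 other fork and origin genes had a higher mean (median log2 fold change 0.29), 11 of them with an unadjusted p under 0.05. Of 32 S phase regulators and E2F targets 31 had a higher mean (median 0.44), 17 of them with such a p. Of all genes tested 58.4% had a higher mean and 3.03% such a p with a higher level. Dbf4, the activating partner of the origin-firing kinase, was at 5.86 ± 0.489 against 2.45 ± 0.059 CPM (mean ± SD, n = 2, si-Thbs1 first), a log2 difference of 0.99 ± 0.18. Ticrr, needed to bring in Cdc45, was at 7.53 ± 0.413 against 3.18 ± 0.904 CPM (1.05 ± 0.22), and Ccna2, the cyclin of S phase, at 38.6 ± 0.763 against 19.99 ± 5.58 CPM (0.94 ± 0.21). The 9 mitosis genes tested had a median of 0.91 beside the 0.54 of the replication set, all 9 with an unadjusted p under 0.05, and the difference between the lists was not tested. In Vldlr OE, 23 of 27 fork and origin genes and 31 of 32 regulators had a lower mean (medians -0.16 and -0.27), against 57.2% of genes. An unadjusted p under 0.05 with a lower level came in 6 and 8 of them, against 3.15% of genes. Atad5, which unloads Pcna, was at 3.53 ± 0.651 against 6.26 ± 0.842 CPM (-0.68 ± 0.16). In si-Vldlr the counts were 22 of 27 and 29 of 32 (medians -0.13 and -0.16), against 53.9% of genes. An unadjusted p under 0.05 with a lower level came in 1 and 5 of them. Over all genes 6.39% had such a p, a share that the first list did not exceed. Fancd2, of the crosslink repair pathway, was at 11.03 ± 0.395 against 15.9 ± 0.982 CPM (-0.49 ± 0.14). In Reelin they were 13 of 27 and 13 of 32 lower, with medians of 0.00092 and 0.01, where 5742 of 13860 genes were lower. The 9 mitosis genes were all lower in Vldlr OE (median -0.55 beside the set's -0.33) and in si-Vldlr (-0.37 beside -0.19). In Reelin 8 of the 9 were higher (median 0.12 beside -0.01), where 58.5% of genes tested were. These differences between lists were not tested either.

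In mouse the gene models of the build allow levels to be compared between genes, as CPM per kb of exon (union of exons, GENCODE M21 on mm10). In Vldlr f/f the highest mean per length was that of Pcna at 20.5 ± 3.37 CPM per kb (mean ± SD, n = 3), and its libraries ran from 18.3 to 24.3. Gmnn (14.9 ± 4.88), Gins4 (13.2 ± 2.71) and Pold2 (12.7 ± 1.04) followed. The range of Gmnn (10.6 to 20.2) overlaps those of Pcna, Gins4 and Pold2, so the order of these genes is not resolved. The lowest were Orc1 (0.294 ± 0.033), Brca1 (0.304 ± 0.197) and Mcm10 (0.327 ± 0.179), whose ranges overlap too. The helicase ring subunits, which work in a single complex, ran from 2.94 ± 1.296 for Mcm2 to 7.67 ± 0.965 for Mcm7. The mm10 annotation has 11 of the 46 genes overlapping a named coding gene, such as Orc6 with Vps35, Mcm7 with Cops6 and Ap4m1, and Fen1 with Tmem258. The sources used here do not give whether the authors counted by strand, so their values may hold reads of the neighbour.

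No shift of the 46 genes in mouse was larger than the spread between libraries of a genotype. In Myh6-Cre;Vldlr f/f compared with Vldlr f/f 34 genes had a higher mean, where 33.9% of the 14922 genes tested did, and the median log2 fold change was 0.13 beside -0.11 over all genes. Rescaling by median-of-ratios factors moved the all-gene median by over 0.1, to -0.0035, and the set's to 0.24, a like distance from all genes on either scale. Leaving out each library in turn took the set's median from -0.09, without Myh6-Cre;Vldlr f/f replicate 1, to 0.30, without Vldlr f/f replicate 3. Only Orc6 had all 3 libraries above all 3 of Vldlr f/f, against 1.72% of genes. In Myh6-Cre;Vldlr f/+ compared with Vldlr f/f 26 genes were higher (41.7% of all genes), the median was 0.04 beside -0.06, and Orc6, Prim2 and Rfc3 were without overlap, against 2.2% of genes. Here the median ran from -0.22 without Myh6-Cre;Vldlr f/+ replicate 2 to 0.22 without its replicate 3. It was also below 0 without Vldlr f/f replicate 1 (-0.10) and replicate 2 (-0.07), and with libraries weighted by their quality (-0.15). Between the Cre genotypes 29 genes were higher in Myh6-Cre;Vldlr f/f (39.8% of all genes), with a median of 0.08 beside -0.06 and 0 without overlap in that direction, against 0.677% of genes, and this median was below 0 without Myh6-Cre;Vldlr f/+ replicate 3 (-0.11) or Myh6-Cre;Vldlr f/f replicate 1 (-0.10). No gene of the set passed limma's test in these 3 comparisons, which 0% of genes passed, and 0 had an unadjusted p under 0.05. Of all genes, 0.617%, 0.932% and 0.221% in turn had such a p upward and 2.42%, 1.49% and 0.704% downward. No gene of the set lay below the other genotype without overlap, against 6.81%, 3.77% and 1.82% of genes. The median half-width of the 95% intervals was 0.74 on the log2 scale, against 0.40 in the 12-library rat table, and the intervals of 22, 25 and 26 genes in turn stayed within 2-fold.

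Orc6, the small origin recognition subunit (mm10 chr8:85299632-85308278), was at 8.07, 9.19 and 9.26 CPM in Vldlr f/f, 14.01, 14.5 and 9.805 CPM in Myh6-Cre;Vldlr f/+ and 12.9, 9.96 and 13.8 CPM in Myh6-Cre;Vldlr f/f. Prim2, the large primase subunit (chr1:33453810-33669795), was at 3.13, 3.62 and 4.19 CPM in Vldlr f/f, 5.296, 5.43 and 4.47 CPM in Myh6-Cre;Vldlr f/+ and 6.03, 4.13 and 4.77 CPM in Myh6-Cre;Vldlr f/f. Rfc3 (chr5:151642756-151651242) was at 11.97, 15.7 and 13.6 CPM in Vldlr f/f, 20.3, 16.6 and 16.2 CPM in Myh6-Cre;Vldlr f/+ and 17.2, 15.1 and 13.9 CPM in Myh6-Cre;Vldlr f/f. Relative to Vldlr f/f, Orc6 differed by 0.42 ± 0.24 in Myh6-Cre;Vldlr f/f and by 0.47 ± 0.24 (SE) in Myh6-Cre;Vldlr f/+, Prim2 by 0.36 ± 0.24 and 0.39 ± 0.24, and Rfc3 by 0.34 ± 0.22 in Myh6-Cre;Vldlr f/+. These 2 contrasts share the Vldlr f/f libraries, so a low Vldlr f/f value enters both.

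The largest mean differences came with wide spread. Rrm2 was at 10.1, 19.9 and 29.5 CPM in Vldlr f/f, 9.58, 37.7 and 21.03 CPM in Myh6-Cre;Vldlr f/+ and 34.5, 30.8 and 22.4 CPM in Myh6-Cre;Vldlr f/f. Gins1 was at 2.62, 3.08 and 4.55 CPM in Vldlr f/f, 5.25, 4.495 and 3.72 CPM in Myh6-Cre;Vldlr f/+ and 9.54, 3.98 and 3.71 CPM in Myh6-Cre;Vldlr f/f. Chaf1a was at 3.46, 2.49 and 8.38 CPM in Vldlr f/f, 2.04, 7.89 and 3.801 CPM in Myh6-Cre;Vldlr f/+ and 4.75, 7.197 and 7.79 CPM in Myh6-Cre;Vldlr f/f. In Myh6-Cre;Vldlr f/f compared with Vldlr f/f they were 0.63 ± 0.48, 0.53 ± 0.34 and 0.50 ± 0.46 (SE), each with overlapping libraries. Dnmt1, at 30.6, 28.4 and 49.4 CPM in Vldlr f/f, 28.6, 29.6 and 25.5 CPM in Myh6-Cre;Vldlr f/+ and 40.5, 26.1 and 17.96 CPM in Myh6-Cre;Vldlr f/f, pointed the other way at -0.38 ± 0.31, with limma adjusted p = 0.997.

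**Figure D4:**
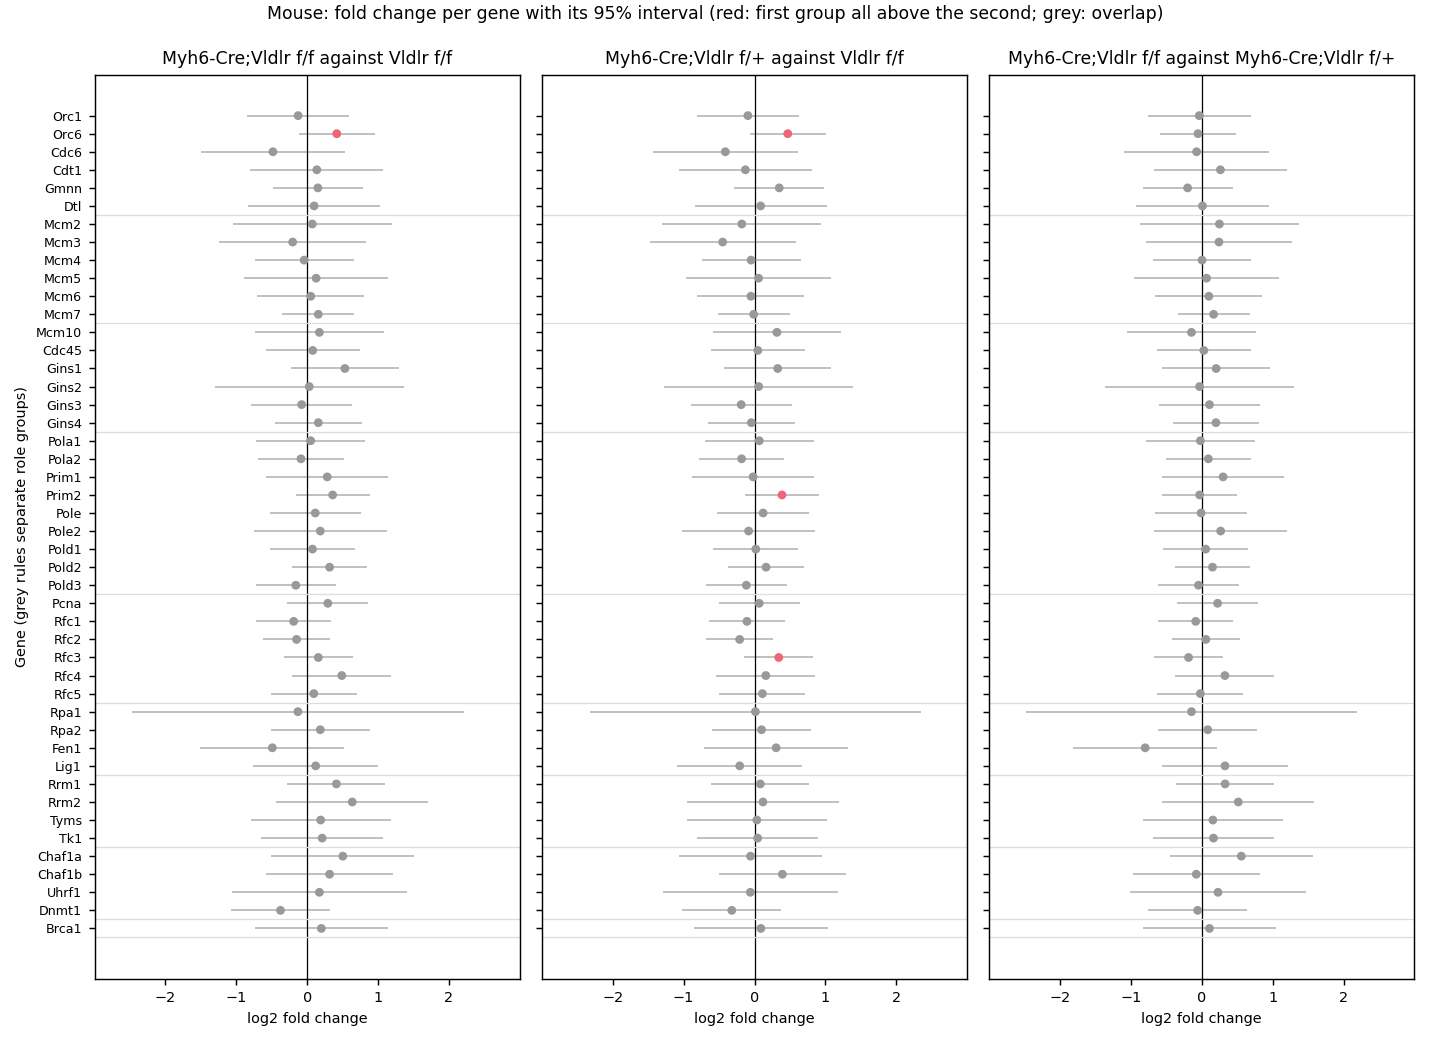
Log2 fold change of the 46 genes in the 3 mouse comparisons with the 95% interval of the limma fit. Red points have every library of the first genotype above every library of the second, and grey points overlap. All intervals include 0, and that of Rpa1 is the widest.

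Libraries of the same mouse genotype differed widely in single genes of the set. The median ratio of the highest to the lowest library over the 46 genes was 1.77 in Vldlr f/f, 2.101 in Myh6-Cre;Vldlr f/+ and 1.80 in Myh6-Cre;Vldlr f/f, against 1.05 to 1.42 in the rat groups of 2. For 4 genes (Orc1, Cdc6, Rpa1 and Fen1) it was above 5 in at least 1 genotype. Rpa1, the large subunit of the single-strand binding protein (chr11:75298166-75348324), was at 69.1, 5.39 and 58.8 CPM in Vldlr f/f, 31.8, 70.02 and 10.8 CPM in Myh6-Cre;Vldlr f/+ and 6.22, 66.6 and 40.7 CPM in Myh6-Cre;Vldlr f/f. Each genotype thus held a library at 10.8 CPM or lower and another at 66.6 CPM or higher, and in Vldlr f/f they were 12.8 times apart. Gins2 (chr8:120578633-120589304) was at 14.7, 41.4 and 11.2 CPM in Vldlr f/f, 38.3, 15.2 and 13.3 CPM in Myh6-Cre;Vldlr f/+ and 43.4, 11.04 and 15.1 CPM in Myh6-Cre;Vldlr f/f. One library of each genotype was at 38.3 CPM or higher and the others at 15.2 CPM or lower. Fen1, at 6.85, 9.11 and 12.1 CPM in Vldlr f/f, 11.5, 11.5 and 11.5 CPM in Myh6-Cre;Vldlr f/+ and 15.6, 2.91 and 4.74 CPM in Myh6-Cre;Vldlr f/f, was even in Myh6-Cre;Vldlr f/+ and 5.35 times apart in Myh6-Cre;Vldlr f/f. Rpa2, the partner subunit of Rpa1, was at 17.04, 10.04 and 18.01 CPM in Vldlr f/f, 10.4, 21.2 and 17.4 CPM in Myh6-Cre;Vldlr f/+ and 15.98, 14.9 and 19.6 CPM in Myh6-Cre;Vldlr f/f. Its lowest Vldlr f/f library and its highest Myh6-Cre;Vldlr f/+ library were those of Rpa1, and in Myh6-Cre;Vldlr f/f the order differed. With Orc1, Cdc6, Rpa1 and Fen1 left out, a choice made after seeing the data, the set's median was 0.15, 0.05 and 0.10 in the 3 comparisons. What sets these swings was not tested.

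**Figure D5:**
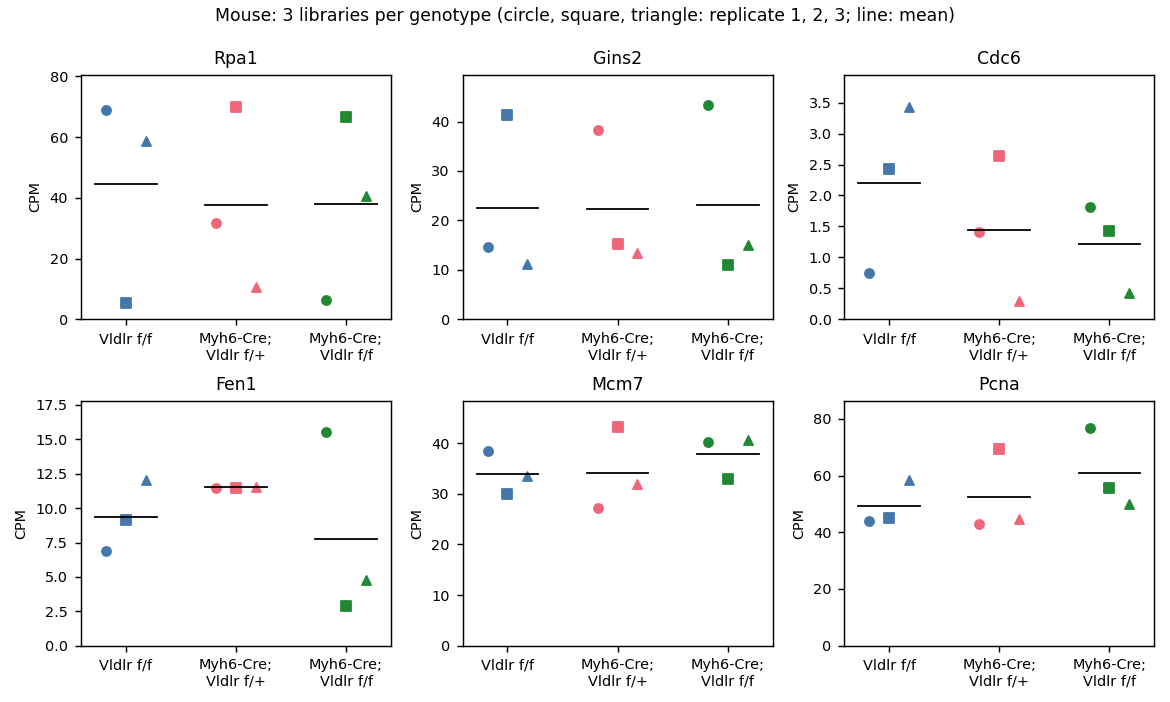
CPM of 6 genes in the 9 mouse libraries, by genotype, with circle, square and triangle for replicates 1, 2 and 3 and a line at the mean. Rpa1 and Gins2 have both high and low libraries within every genotype, while Mcm7 and Pcna vary less and overlap between genotypes.

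Other lists in mouse gave the following. In Myh6-Cre;Vldlr f/f compared with Vldlr f/f 17 of 28 other fork and origin genes were higher (median 0.10) and 19 of 33 S phase regulators (median 0.02). Of all genes tested 33.9% were higher there. The 10 mitosis genes had a median of 0.89 with 9 higher, beside the 0.13 of the replication set, and the difference between the lists was not tested. An unadjusted p under 0.05 came with 3 of them (Cdk1, Kif11 and Bub1), against 0.617% of genes upward. The mitosis genes summed to 52.3, 222 and 168 CPM in Vldlr f/f and 223, 211 and 304 CPM in Myh6-Cre;Vldlr f/f. Vldlr f/f replicate 1 thus stood far below the other libraries, and the groups overlap. In Myh6-Cre;Vldlr f/+ they summed to 125, 191 and 289 CPM. By the mean 10 of 10 were higher there than in Vldlr f/f (median 0.53), against 41.7% of genes. Ccna2, the cyclin of S phase, was at 43.8 ± 10.7 against 19.5 ± 8.33 CPM (mean ± SD, n = 3, Myh6-Cre;Vldlr f/f first), a log2 difference of 1.20 ± 0.39, and Top2a, the topoisomerase that untangles copied DNA, at 56.6 ± 11.5 against 28.6 ± 14.3 CPM (1.08 ± 0.41), and neither passed limma's test. Epicardial markers summed to 161, 112 and 87.3 CPM in Vldlr f/f, 458, 229 and 125 CPM in Myh6-Cre;Vldlr f/+ and 138, 161 and 325 CPM in Myh6-Cre;Vldlr f/f, a sum that was higher in some Cre libraries and overlaps between genotypes. Cardiomyocyte markers summed to 44248, 45612 and 38501 CPM in Vldlr f/f, 41588, 38654 and 43169 CPM in Myh6-Cre;Vldlr f/+ and 40612, 36771 and 34795 CPM in Myh6-Cre;Vldlr f/f. Red blood cell genes summed to 6065, 2961 and 3052 CPM in Vldlr f/f, 5860, 6695 and 4584 CPM in Myh6-Cre;Vldlr f/+ and 3079, 3440 and 6270 CPM in Myh6-Cre;Vldlr f/f. Fibroblast markers summed to 3027, 2972 and 4028 CPM in Vldlr f/f and 5624, 4356 and 3466 CPM in Myh6-Cre;Vldlr f/+. In Myh6-Cre;Vldlr f/f they summed to 3873, 3701 and 3466 CPM, and these sums overlap between genotypes. Relative to Vldlr f/f, 8 of 8 were higher in Myh6-Cre;Vldlr f/+ (median 0.34) and 5 of 8 in Myh6-Cre;Vldlr f/f (median 0.15). Of all genes 41.7% and 33.9% in turn were higher. The part of these cell types in the differences was not tested.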

How the data were processed

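RNA-seq of total RNA was deposited as 3 gene tables, 2 from rat with 12 and 4 libraries and 1 from mouse with 9. The authors' deposited values are CPM, counts scaled to a fixed library total, and each column sums to 1000000. The submitters' processing notes name HISAT2 2.1.0, StringTie 1.3.4, edgeR 3.20.9 and, as builds, rn6 and mm10, and give neither roles nor order. Read depth is not known, so no count test was run. From these tables, log2(CPM + 1) was tested with limma 3.58.1 (R 4.3.3, intensity trend) in 1 fit per table over all groups of that table. The fit kept genes with a CPM of at least 1 in 2 rat or 3 mouse libraries. Benjamini-Hochberg adjustment ran over all genes tested and the threshold was 0.05. The code was checked on simulated data. Rows with duplicated names, 4 in each table, were left out. Groups came from the sample labels. The 2 Control columns match their group by elimination, since every other column names another group.

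The 46 genes and the other lists were chosen with earlier results of these data known. Genes were named by role, at most 3 per role and comparison, taking the smallest p first, plus genes that break a pattern or are referred to elsewhere, which were chosen after their values were seen. Same-numbered libraries deviated together in Myh6-Cre;Vldlr f/f and Myh6-Cre;Vldlr f/+ (correlations of deviations over genes 0.46, 0.44 and 0.33), which pairs them by the data and not by the labels, and with a replicate block 0 of the 46 genes passed there. Exon lengths and mouse coordinates are from GENCODE M21, and figures and tables were made with Python 3.11.15, pandas 2.3.3 and matplotlib 3.10.9.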

Additional observations from a re-analysis of the deposited data

How the results depend on the processing

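Medians of the set kept their direction under every alternative in si-Thbs1 (0.45 to 0.62), Vldlr OE and si-Vldlr. In Vldlr OE leaving out single libraries moved the median from -0.59 to -0.092 and the number of genes past limma's test from 0 to 4. In si-Thbs1 the median ran from 0.49 to 0.62 without single libraries. Each such rat fit leaves a lone library in a group. Its spread is taken from the other groups of its table, so calls of these fits are not given. In Vldlr OE, genes that changed sign without a library include these: Rpa2 ran from -0.43 to 0.093 (0.056 without Control column 2), Rrm1 from -0.66 to 0.028 and Tk1 from -0.62 to 0.070. The cause was not tested. Without single libraries, the number of the 46 genes with a higher mean ran from 0 to 14 in Vldlr OE and from 19 to 40 in Myh6-Cre;Vldlr f/f relative to Vldlr f/f. The pseudocount, the filter and the scaling changed no call in the set.

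With the replicate number as a block, a pairing that the labels do not state, 1 gene of the set passed in si-Thbs1 (Rrm2, limma adjusted p = 0.0320). Of all 13416 genes 43 passed there, against 6 without the block. No other call in the set changed. The correlation of same-numbered libraries was 0.41 in si-Thbs1, 0.16 in si-Vldlr and -0.06 in Reelin. With groups of 2 both pairs give the same value by construction. For Vldlr f/f it was -0.37, -0.29 and 0.06 against Myh6-Cre;Vldlr f/f, and -0.28, -0.54 and -0.05 against Myh6-Cre;Vldlr f/+ (replicates 1, 2 and 3). No block was used for Vldlr OE because the Control columns, headed Blank, could not be matched to single Control labels. Groups of 2 or 3 libraries limit precision: the median half-width of the 95% intervals was 0.43 for si-Thbs1, 0.40 for the other rat comparisons and 0.74 in mouse.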

Other observations

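The mitosis genes differed between the control groups of the 12-library rat table as the replication genes did. Their 9 tested genes summed to 112 and 236 CPM in Control columns 1 and 2, 369 and 351 CPM in PBS and 446 and 413 CPM in si-Control_v. In Vldlr OE they summed to 111 and 103 CPM, with replicate 1 close to Control column 1 and both libraries below Control column 2. The labels give no date or batch for these experiments. Their duration (48 h, 60 h and 72 h) and the treatment of their control cells differ. Experiment, control treatment and time therefore cannot be told apart among these control groups. The control siRNA groups of the 2 rat tables had the same 60 h. Their replication genes summed to 1503 and 1405 CPM in si-Control_v and 1043 and 927 CPM in si-Control_t. The si-Thbs1 libraries, at 1507 and 1391 CPM, were near si-Control_v. What sets this difference was not tested.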
